A study of Mus musculus with 12 samples.

Results

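Transcripts of 7 small-molecule methyltransferases were followed in brown adipose tissue: Inmt, Nnmt, Hnmt, Gnmt, Gamt, Pemt and Tpmt. Their probe sets were taken through the platform's probe table, keeping every probe set assigned to a single gene, which gave 10 probe sets among 34945 and 7 genes among 18193. Of these genes 6 had 1 probe set each, and Tpmt had the other 4. The set was chosen by the measured difference of Inmt between the treatments, the largest fall of all genes tested, and filled with enzymes of the same kind, with their values known. Their differences between groups are therefore given as a description, without a p-value. The same holds where one of these enzymes is said below to be called or not called.

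The tissue came from male ob/ob mice, which lack functional leptin and are obese, on normal chow and aged 3 months. In the treated group, 6 mice received 1 intraperitoneal injection of 1 mg/kg of an agonistic antibody against the receptor FGFR1. In the control group, 6 mice received control IgG and were pair-fed, meaning that their food was matched to the intake of the treated mice. Tissue was taken on day 4, and each mouse gave 1 array. All mice in both groups carried the ob/ob mutation, so the values describe obese, leptin-deficient animals, and whole tissue was measured, in which fewer cells of a type and less RNA per cell cannot be told apart. The tissue label was checked against brown fat markers: Ucp1 averaged 14.6 on the log2 scale after anti-FGFR1 and 14.5 after control IgG, and Cidea 14.3 after anti-FGFR1 and 14.4 after control IgG, near the top of the range of the arrays (3.16 to 14.9). The mean of all 10 brown fat markers was 11.4 ± 0.07 after anti-FGFR1 and 11.3 ± 0.12 after control IgG (SD, n = 6 per group). By limma Elovl3 (0.76) and Cox7a1 (0.16) were higher and Zic1 (-0.23) lower, and Lhx8 was dim, at 6.45 after anti-FGFR1 and 6.55 after control IgG. Anti-FGFR1 replicate 5 stood apart in skeletal muscle markers, with a mean of 6.89 over 14 markers against 10.47 or more in the other treated mice. The differences of Inmt and Nnmt are also given without it. The within-group correlations below were not recomputed without this mouse.

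These enzymes move a methyl group from S-adenosylmethionine (SAM) to a small acceptor, releasing S-adenosylhomocysteine. Inmt methylates indoleamines such as tryptamine, Nnmt methylates nicotinamide, the vitamin B3 amide from which NAD is rebuilt, and Hnmt inactivates histamine. Gnmt methylates glycine and is regarded as a buffer of the SAM supply in liver, Gamt makes creatine from guanidinoacetate, Pemt makes phosphatidylcholine from phosphatidylethanolamine, and Tpmt methylates thiopurine drugs. In mice, lowering Nnmt in fat and liver has been reported to protect against diet-induced obesity.

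The sequence upstream of Inmt is shown because this gene had the largest fall, and that of Gamt because it had the next lowest difference among the enzymes and a different base composition. Both are the 250 bases before the start used in the RefSeq promoter windows (GRCm38.p6), on the minus strand at chr6:55174991-55175240 and chr10:80261013-80261262. The Inmt window ends where the annotated gene begins, while the Gamt window overlaps the outer edge of its annotated gene by a few bases. They are written 5′ to 3′, with TATAAA in capitals for Inmt and the GC box (GGGCGG, here on the opposite strand as CCGCCC) in capitals for Gamt.
Inmt: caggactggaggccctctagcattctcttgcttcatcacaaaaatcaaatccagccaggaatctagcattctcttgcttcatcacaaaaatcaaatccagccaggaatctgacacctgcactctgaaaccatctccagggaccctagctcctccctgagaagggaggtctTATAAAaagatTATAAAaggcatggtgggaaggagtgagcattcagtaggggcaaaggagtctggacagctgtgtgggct
Gamt: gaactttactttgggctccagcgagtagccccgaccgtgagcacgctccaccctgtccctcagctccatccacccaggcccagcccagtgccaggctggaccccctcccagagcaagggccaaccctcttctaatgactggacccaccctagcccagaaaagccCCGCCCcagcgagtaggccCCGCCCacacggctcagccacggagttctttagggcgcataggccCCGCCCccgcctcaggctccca

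The Inmt window had 48.0% G and C and 0 CpG dinucleotides, against 66.8% and 12 CpG in the Gamt window. It held TATAAA at 2 places, starting 80 and 69 bases before the gene start. Searched on both strands, TATAAA was present in 12.4% of 32851 upstream windows of this length, and among the enzymes with a window (Inmt, Hnmt, Gnmt, Gamt, Pemt and Tpmt) it was found in that of Inmt only. GGGCGG occurred 3 times in the Gamt window and 5 times in the Tpmt window, and was present in 32.7% of all windows. None of the enzymes' windows held the E-box CACGTG, present in 6.02% of all windows, or the steroid receptor half-site AGAACA, present in 16.1%. The cAMP response element TGACGTCA was likewise absent, and is present in 1.55% of all windows. The ETS site CCGGAAGT, present in 2.88% of all windows, was not found either. CCAAT was found in the windows of Hnmt and Gnmt, in 1 of the 2 Pemt windows, and in 33.8% of all windows. The windows of Hnmt and Pemt lay inside the annotated gene. Those of Gnmt and Tpmt overlapped the outer edge of their annotated genes. The Inmt window also carried 2 adjoining exact copies of a 46-base unit, at positions 16 to 61 and 62 to 107 counted from its 5′ end. An exact repeat of at least that length was present in 0.198% of all windows.
Inmt repeat unit, first copy, minus strand, chr6:55175180-55175225: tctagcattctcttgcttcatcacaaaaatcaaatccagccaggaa

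On the deposited log2 scale, Inmt ran from 8.01 through a median of 8.25 to a highest value of 8.67 in the 6 anti-FGFR1 mice. In the 6 control IgG mice it ran from 10.03 through a median of 10.2 to 10.35. The groups did not overlap, and the gap between the highest treated and the lowest control mouse was wider than the spread inside either group. The means were 8.30 ± 0.22 after anti-FGFR1 and 10.2 ± 0.12 after control IgG (SD, n = 6 per group), a difference of -1.89 ± 0.09 (SE, limma), or 3.72-fold lower. Leaving out any 1 mouse gave differences between -1.97 and -1.84.

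**Figure D1:**
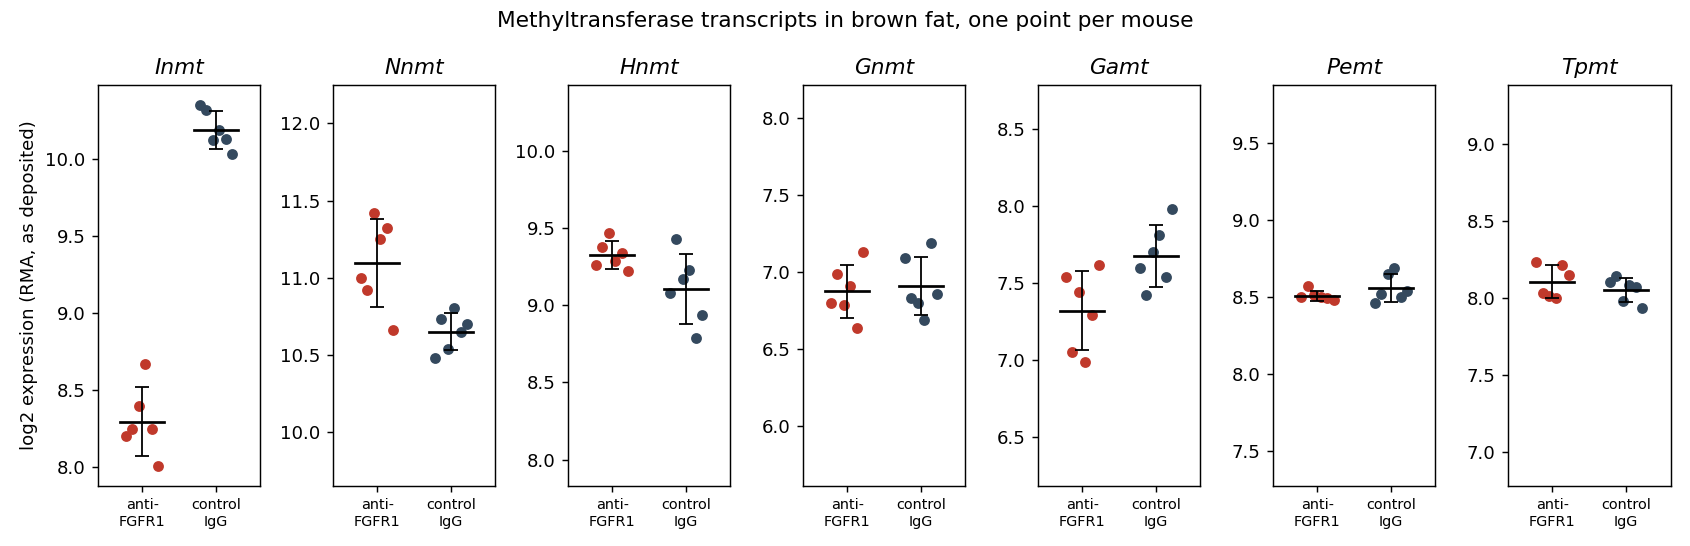
Log2 expression of the 7 enzymes in each mouse, anti-FGFR1 on the left and control IgG on the right of each panel, with the mean (line) and SD (bar) of 6 mice. All panels span the same number of log2 units. Inmt is the only panel in which the groups do not overlap.

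Nnmt was higher after anti-FGFR1. It had a lowest value of 10.66, a median of 11.1 and a highest value of 11.42 in anti-FGFR1 mice, against 10.48, 10.7 and 10.80 in control IgG mice. In 5 of 6 treated mice it lay above all controls, and the remaining mouse, replicate 6, lay inside the control range at 10.66. The means were 11.1 ± 0.28 after anti-FGFR1 and 10.7 ± 0.12 after control IgG (SD, n = 6 per group), a difference of 0.45 ± 0.11 (SE), or 1.36-fold. Without anti-FGFR1 replicate 6 the difference was 0.53 ± 0.09. The SD of Nnmt was larger among treated mice than among controls, a difference in spread that was not tested.

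Hnmt and Gamt differed in opposite directions with overlapping groups. Hnmt ran from 9.22 to 9.47 with a median of 9.31 in anti-FGFR1 mice, and from 8.79 to 9.43 with a median of 9.13 in control IgG mice. All 6 treated mice lay above the control median, and 1 of them lay above all controls. The means were 9.33 ± 0.09 after anti-FGFR1 and 9.11 ± 0.22 after control IgG (SD, n = 6 per group), with a difference of 0.22 ± 0.09 (SE). Gamt ran from 6.99 to 7.62 with a median of 7.37 in anti-FGFR1 mice, and from 7.42 to 7.98 with a median of 7.65 in control IgG mice. In 3 of the 6 treated mice it lay below all controls. The means were 7.32 ± 0.26 after anti-FGFR1 and 7.68 ± 0.20 after control IgG (SD, n = 6 per group), with a difference of -0.35 ± 0.12 (SE).

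The other 3 enzymes had nearly equal means in the groups. Gnmt, the glycine enzyme best known from liver, averaged 6.88 ± 0.17 after anti-FGFR1 and 6.91 ± 0.19 after control IgG, below the array medians (7.19 to 7.23), and differed by -0.03 ± 0.09 (SE). Pemt averaged 8.51 ± 0.03 after anti-FGFR1 and 8.56 ± 0.09 after control IgG, and differed by -0.05 ± 0.05 (SE). Tpmt averaged 8.10 ± 0.10 after anti-FGFR1 and 8.05 ± 0.08 after control IgG on its brightest probe set (SD, n = 6 per group), and differed by 0.05 ± 0.06 (SE). The other 3 Tpmt probe sets differed by 0.03, 0.01 and -0.03, on both sides of 0. Pemt varied least, with a pooled within-group SD of 0.0676, and Gamt most, with 0.234. Over all genes the median within-group SD was 0.112.

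**Figure D2:**
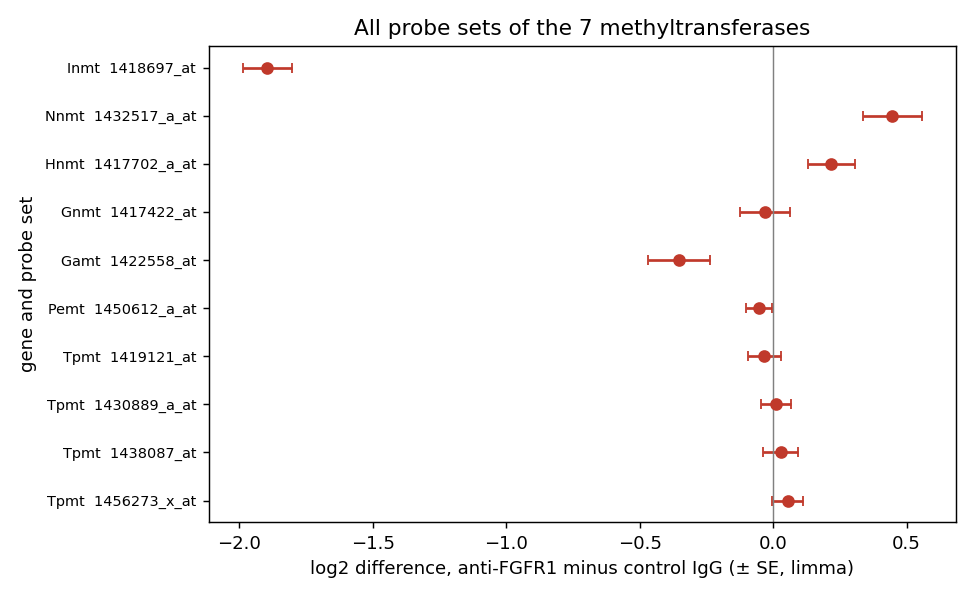
Log2 difference, anti-FGFR1 minus control IgG, with its SE for each of the 10 probe sets. Inmt stands at -1.89, Nnmt, Hnmt and Gamt between -0.35 and 0.45, and the probe sets of Gnmt, Pemt and Tpmt between -0.05 and 0.05.

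Genes are called changed where limma's Benjamini-Hochberg adjusted p over all 18193 genes was under 0.05. Of all genes 8.03% were called, 2.94% higher (535) and 5.09% lower (926). Normalizing the deposited values by quantiles once more gave 732 higher and 760 lower. Among the 7 enzymes 2 were called, Nnmt higher and Inmt lower, and since this contrast took part in their choice nothing is read from that count. Over all single-gene probe sets 6.9% were called (2.15% higher and 4.75% lower), and the same 2 of the 10 probe sets were. Groups that did not overlap were seen in 1 of the 7 enzymes, lower in treated mice, against 5.12% of all genes (1.57% higher and 3.55% lower). The median difference over the enzymes was -0.03, and 0.01 without Inmt, against 0.01 over all genes.

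The call of Nnmt was not kept under every setting. Inmt was called in each one run, but it was chosen for its fall on these same arrays. Its repeated calls are therefore description and no separate support. The calls of Nnmt, Gamt and Hnmt, gained or lost, are description as well, since these enzymes were chosen with their values known. The signal difference between 3' and 5' probe sets, averaged over Actb and Gapdh, is a measure of RNA integrity. It was larger in treated mice, at 0.203 ± 0.027 against 0.161 ± 0.031 in control IgG mice (SD, n = 6 per group, exact permutation p = 0.0368). Taken singly, Actb was at 0.405 in treated and 0.335 in control IgG mice (exact permutation p = 0.043). Gapdh was at 0.001 in treated and -0.013 in control IgG mice (exact permutation p = 0.507), so the larger mean rested mainly on Actb. With the mean of both as a covariate Inmt was at -1.91 ± 0.12, and Nnmt at 0.49 ± 0.14 was no longer called. The call of Nnmt was also lost without anti-FGFR1 replicate 4 (0.42 ± 0.12), anti-FGFR1 replicate 5 (0.40 ± 0.11) or control IgG replicate 3 (0.43 ± 0.12). The mouse low in muscle markers, anti-FGFR1 replicate 5, is among these, and without it Inmt was at -1.89 ± 0.10.

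Markers of other cell types were measured beside the enzymes, since brown fat holds vessels, fibroblasts and immune cells. The mean of 14 endothelial markers lay between 9.22 and 9.45 in anti-FGFR1 mice and between 9.48 and 9.71 in control IgG mice, with 8 markers lower and 0 higher by limma. The mean of 10 smooth muscle and pericyte markers lay between 9.62 and 9.82 in anti-FGFR1 mice and between 9.93 and 10.1 in control IgG mice, with 6 lower and 0 higher. Neither pair of groups overlapped (exact permutation p = 0.0022 each, the smallest the design allows, adjusted p = 0.011 over 10 lists). These means move with the treatment as Inmt does. With the endothelial mean as a covariate Inmt was at -1.78 ± 0.18 and called. With the smooth muscle and pericyte mean it was at -1.84 ± 0.23, and it was the 1 gene of 18193 called. Nnmt was at 0.76 ± 0.20 with the endothelial mean and 0.23 ± 0.27 with the smooth muscle and pericyte mean, and was called with neither. The other enzymes were not called with either. Gamt was at -0.62 ± 0.22 with the endothelial mean and -0.63 ± 0.28 with the smooth muscle and pericyte mean, and Tpmt at -0.13 ± 0.09 and -0.21 ± 0.11, below 0 in both. With the smooth muscle and pericyte mean Hnmt was at 0.05 ± 0.21 and Gnmt at 0.40 ± 0.19. With the endothelial mean Hnmt was at 0.22 ± 0.18, Gnmt at -0.15 ± 0.18 and Pemt at -0.01 ± 0.09. Over all genes the median ratio of a gene's SE to its SE without a covariate was 1.91 with the endothelial mean and 2.45 with the smooth muscle and pericyte mean.

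Macrophage and mast cell markers are of interest beside Hnmt, because mast cells make histamine. The mean of 13 macrophage markers ran from 9.56 to 9.97 in anti-FGFR1 mice and from 9.27 to 9.93 in control IgG mice (exact permutation p = 0.0368, adjusted p = 0.123), with 3 higher and 0 lower by limma. With this mean as a covariate Hnmt was at 0.22 ± 0.11, Gamt was called at -0.48 ± 0.14, and Nnmt was not called at 0.40 ± 0.14. The mean of 9 mast cell markers ran from 6.91 to 7.12 in treated mice and from 6.85 to 7.03 in control IgG mice (exact permutation p = 0.110, adjusted p = 0.276), with 2 higher and 1 lower. Hdc, the enzyme that makes histamine, differed by 0.00 ± 0.06. Its signal was dim, averaging 6.54 in both groups, and like the mast cell mean lay below the array medians (7.19 to 7.23). The fibroblast and preadipocyte mean (13 markers, 3 higher and 2 lower) ran from 9.62 to 10.05 in treated mice and from 9.65 to 10.16 in control IgG mice. The part of these cells in the differences of Hnmt, Gamt and Nnmt was not tested further.

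Variation among mice of the same group was then compared between the enzymes, using deviations from the group means over 12 arrays, which do not depend on the treatment difference. Of 21 pairs of enzymes 0 passed a permutation test within groups after adjustment over the pairs, and 2 had an unadjusted p under 0.05. Inmt and Gamt varied inversely (Pearson r = -0.70, permutation p = 0.019, adjusted p = 0.194, Spearman rho = -0.72, permutation p = 0.017, adjusted p = 0.250). The correlation was -0.71 among anti-FGFR1 mice and -0.70 among control IgG mice, and -0.45 without the 2 arrays farthest out in Inmt. Nnmt and Gnmt gave r = -0.66 (permutation p = 0.017, adjusted p = 0.194) and rho = -0.66 (permutation p = 0.024, adjusted p = 0.250), and r = -0.56 without the 2 arrays farthest out in Nnmt. Inmt and Nnmt, which methylate different substrates but belong to the same enzyme family, gave r = 0.52 (permutation p = 0.174, adjusted p = 0.521), with 0.70 in anti-FGFR1 and -0.24 in control IgG mice and 0.15 without the 2 farthest arrays.

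The same deviations were set against the means of the 10 marker lists and the 3' to 5' difference. None of the 77 relations passed after adjustment, and 8 had an unadjusted permutation p under 0.05. The closest was that of Nnmt with white fat markers (r = 0.83, permutation p = 0.0034, adjusted p = 0.261, rho = 0.78, permutation p = 0.011, adjusted p = 0.428), with r = 0.73 without the 2 arrays farthest out in the marker mean. Within groups r was 0.96 after anti-FGFR1 and 0.49 after control IgG. The white fat mean itself was 9.39 ± 0.13 after anti-FGFR1 and 9.36 ± 0.09 after control IgG (SD, n = 6 per group, exact permutation p = 0.634). Of its 9 markers 2 were higher and 2 lower by limma, so the flat mean does not show that the markers were unchanged. With this mean as a covariate Nnmt was at 0.40 ± 0.07 and called.

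**Figure D3:**
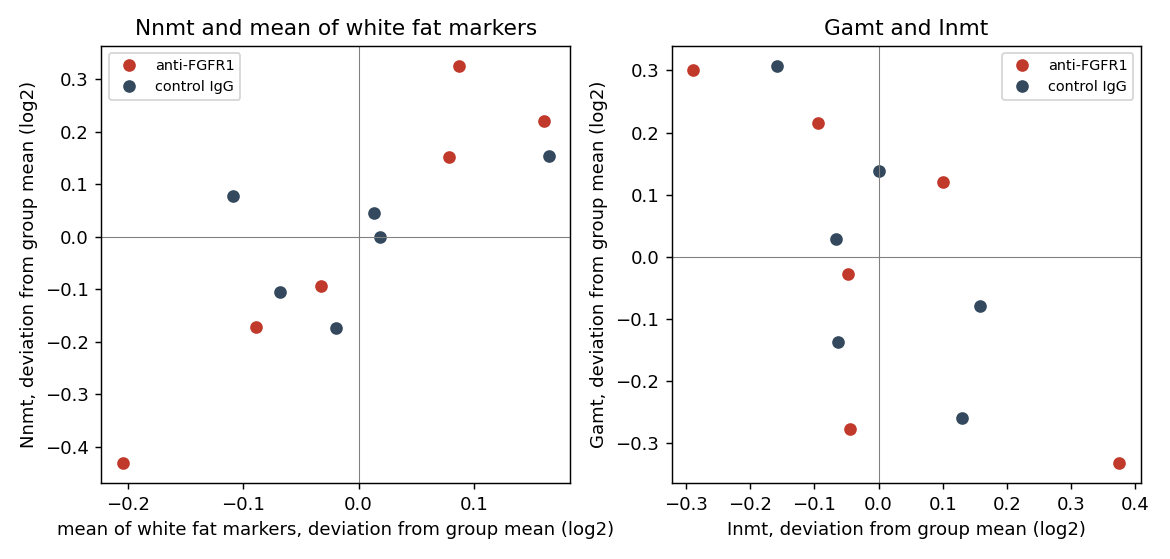
Deviations from the group mean (log2), one point per mouse. Left, Nnmt against the mean of 9 white fat markers. Right, Gamt against Inmt. Nnmt tended to be higher in mice with higher white fat markers (r = 0.83), and Gamt lower in mice with higher Inmt (r = -0.70). Neither relation passed after adjustment (permutation test, adjusted p = 0.261 and 0.194).

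The genes whose deviations were most like those of Inmt and Nnmt over the 12 arrays were listed among 9095 others above the median level. They are the extremes of many comparisons, so no p is given. For Inmt the highest r were those of Tdrp (0.88), Sult1a1 (0.86), a sulfotransferase of phenols, Slc6a13 (0.83), a GABA and taurine transporter, Sqor (0.82), a mitochondrial sulfide oxidase, and Lrch3 (0.81). Without the 2 arrays farthest out in Inmt they were 0.69, 0.84, 0.69, 0.66 and 0.62. Of these 5 genes Slc6a13 differed between the groups, at -0.67 ± 0.09 (limma adjusted p = 0.00037), and the other 4 were not called. The lowest r with Inmt were those of Aldh16a1 and Sars2 (-0.81 each), Kri1, Tspan5 (-0.79 each) and Stk19 (-0.785). Without the 2 farthest arrays they were -0.75, -0.695, -0.88, -0.70 and -0.75.

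For Nnmt the highest r were those of Map1lc3a (0.96), a protein of autophagosome membranes, Dip2b (0.95), the growth hormone receptor Ghr (0.94), St13 (0.93) and Gnai1 (0.92), an inhibitory G protein subunit. Without the 2 arrays farthest out in Nnmt these stayed between 0.79 and 0.92, and limma called none of the 5 between the groups. The lowest were those of D130017N08Rik (-0.92), Ank (-0.89), which exports pyrophosphate, Acaca (-0.87), acetyl-CoA carboxylase of fatty acid synthesis, Zbtb42 (-0.87) and Sorl1 (-0.87), a sorting receptor. Without the 2 farthest arrays these were -0.84, -0.90, -0.73, -0.89 and -0.62, and Sorl1 was at -0.12 among control IgG mice alone. Ank was called lower, at -0.28 ± 0.05 (limma adjusted p = 0.0042).

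Around the enzymes, 9 lists of 133 genes covered the methyl donor, the substrates and the products, and 119 were measured. Of these 14 were called (11.8%, beside 8.03% of all genes), 7 higher and 7 lower, and the median difference was 0.02. When only genes above the median of all probe sets were fitted, 15 of 90 pathway genes were called, beside 1672 of 11653 genes. The lists were chosen with earlier results of these data known, so nothing is read from these shares. None of the 14 genes called in the main fit was called with the endothelial mean or the smooth muscle and pericyte mean as a covariate. Each kept its direction. Both means separated the groups completely, and with either one the SE rose for 100% of genes. For that reason nothing is read from the lost calls or the kept directions. With the endothelial mean Aldh1l1 was at 0.10 ± 0.13 and Hprt at -0.23 ± 0.10. With the smooth muscle and pericyte mean Cth was at 1.34 ± 0.22, Ahcyl2 at -0.18 ± 0.14, Apip at 0.08 ± 0.10, Mtap at 0.09 ± 0.11 and Aldh1l1 at 0.12 ± 0.18. Among 8 other small-molecule methyltransferases Coq5, which methylates a ring in coenzyme Q synthesis, rose by 0.28 ± 0.05 (limma adjusted p = 0.0016), with its second probe set at 0.23, and 7 were not called.

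Of 12 genes of the methionine cycle and SAM supply 1 rose and 2 fell. Cth, which splits cystathionine to cysteine, ran from 6.67 to 6.86 in anti-FGFR1 mice and from 5.51 to 6.45 in control IgG mice. It rose by 0.74 ± 0.11 (limma adjusted p = 0.0011), and its signal lay below the array medians on every array. Ahcyl2, a relative of the hydrolase that removes S-adenosylhomocysteine, fell, with a log2 difference of -0.35 ± 0.06 (limma adjusted p = 0.0023), although 1 of its 3 probe sets was at 0.05. Mtr, methionine synthase, fell, with a log2 difference of -0.27 ± 0.07 (limma adjusted p = 0.030), a call lost without anti-FGFR1 replicate 1 or 2 or control IgG replicate 3 or 5, and also in the fit with the integrity covariate (-0.18 ± 0.09). Ahcy itself was at -0.08 ± 0.05 and was not called (named after its value was seen).

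Of 14 genes of folate and sarcosine metabolism Aldh1l1 rose by 0.35 ± 0.08 (limma adjusted p = 0.013), while its dimmer probe set was at 0.05, and 13 were not called. Of 11 genes of polyamine synthesis and methionine salvage the salvage enzymes Mtap and Apip rose, by 0.21 ± 0.05 and 0.18 ± 0.04 (limma adjusted p = 0.014 and 0.013). The other probe sets of Mtap were at 0.18, 0.00 and -0.07. With the integrity covariate Aldh1l1 (0.30 ± 0.10) and Apip (0.18 ± 0.05) were no longer called. Averaging the probe sets ended the calls of Aldh1l1 (0.20) and Mtap (0.08), and Mtap was not called with the macrophage mean either (0.18 ± 0.06).

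Genes of NAD and nicotinamide metabolism are those nearest to the substrate of Nnmt. Of 30 measured, 2 rose and 1 fell. Parp1, which consumes NAD in DNA repair, rose by 0.26 ± 0.05 (limma adjusted p = 0.0039), with its other probe sets at 0.36, 0.19 and -0.01. Afmid, of the kynurenine route, rose by 0.24 ± 0.05 (limma adjusted p = 0.012). Its other probe sets were at 0.13, 0.16 and 0.04 and were not called, and its signal in control IgG mice lay below the array medians. Sirt2, an NAD-dependent deacetylase, fell, with a log2 difference of -0.23 ± 0.05 (limma adjusted p = 0.014). With the integrity covariate Afmid (0.19 ± 0.07) and Sirt2 (-0.21 ± 0.07) were no longer called. Neither was Afmid when its probe sets were averaged (0.14), nor Sirt2 with the macrophage mean (-0.19 ± 0.06). Nampt, which rebuilds NAD from nicotinamide, was at 0.06 ± 0.05, and Aox1, which oxidises the product of Nnmt, at -0.02 ± 0.07, neither of them called (both named after their values were seen).

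Of 7 genes of creatine synthesis and use 2 fell. The creatine transporter Slc6a8 ran from 9.39 to 9.69 in anti-FGFR1 mice and from 10.10 to 10.25 in control IgG mice. It fell, with a log2 difference of -0.56 ± 0.06 (limma adjusted p = 7.1e-05), and its second probe set was at -0.37. Alpl, an alkaline phosphatase that acts on phosphocreatine in thermogenic fat, fell, with a log2 difference of -0.30 ± 0.06 (limma adjusted p = 0.0039), and was at -0.25 ± 0.07 and not called with the integrity covariate. Gatm, which makes the substrate of Gamt, was at 0.41 ± 0.16 and was not called (limma adjusted p = 0.133, named after its value was seen). Of 16 genes of amine handling Maoa, monoamine oxidase A, fell, with a log2 difference of -0.41 ± 0.06 (limma adjusted p = 0.00054), with its second probe set at -0.32. Of 5 genes of thiopurine handling Hprt, which activates thiopurines, fell, with a log2 difference of -0.36 ± 0.06 (limma adjusted p = 0.0015). Of 16 genes of phosphatidylcholine and choline 0 were called by limma, and those with the smallest p were Lpcat1 (0.16 ± 0.05) and Ptdss1 (-0.15 ± 0.05).

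**Figure D4:**
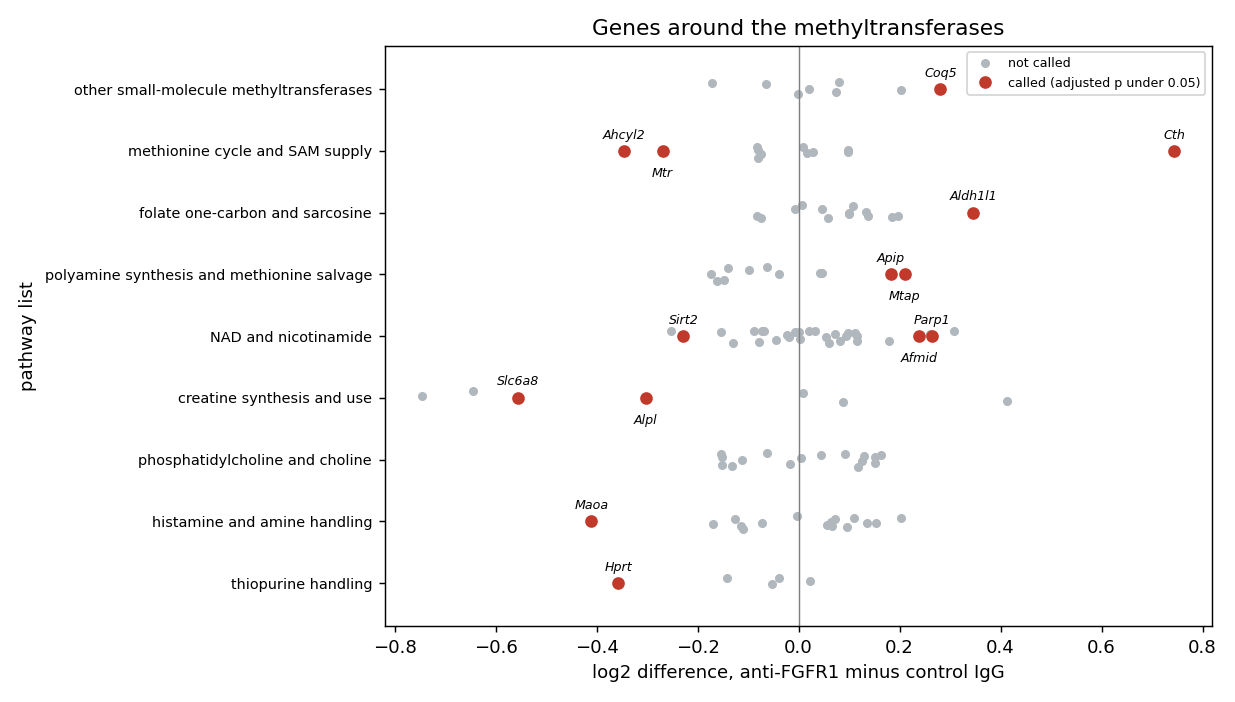
Log2 difference, anti-FGFR1 minus control IgG, of each measured gene in 9 pathway lists, with genes called by limma in red and named. Cth is the highest at 0.74 and Slc6a8 the lowest called gene at -0.56.

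Fgfr1, the receptor bound by the antibody, ran from 10.18 to 10.67 in anti-FGFR1 mice and from 10.46 to 10.78 in control IgG mice, and was not called (-0.20 ± 0.09, limma adjusted p = 0.197). Its other probe sets were at -0.23 ± 0.08 and 0.03 ± 0.05, and neither was called. Arrays of a group correlated with each other at 0.993 to 0.996 on average, and no pair of arrays shared more than 0.0665% of its values.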

How the data were processed

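The deposited matrix holds log2 expression values for 45101 probe sets on 12 one-colour arrays. Per the submitters' processing notes the authors used RMA and limma, with no version given. RMA corrects background, normalizes arrays together and summarises probes, and it pulls small changes of dim probe sets toward 0. Arrays give no counts, and their number limits the precision. Names came from the platform's probe table, with symbols updated through Entrez identifiers to RefSeq (GRCm38.p6), where 34741 of 34945 single-gene probe sets matched. Probe sets with several genes (932), none (9211) and controls (64) were left out. A gene is represented by its brightest probe set, judged without regard to group.

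The treatment contrast was fitted in R 4.3.3 by limma 3.58.1 (lmFit, eBayes, two-sided, no covariates, Benjamini-Hochberg adjustment over all genes), with files read by the data.table package (version 1.17.8). The fit was tested on simulated data. Marker means were compared by exact permutation over 924 assignments. Correlations of deviations from group means were tested with 100000 permutations within groups. The permutation p for marker lists and 4 marker covariates (endothelium, smooth muscle and pericyte, macrophage, white fat) were added after seeing the data. The members and lists were chosen with earlier results of these data known. The text names the 7 enzymes, the called genes of each pathway list or else the 2 with the smallest p, Fgfr1, and the 5 genes at each end of the correlation with Inmt and with Nnmt. Outside this rule it names Ahcy, Nampt, Aox1, Gatm, Hdc and brown fat markers, after their values were seen. The build behind the values is not given in the sources used here, and upstream windows are those of RefSeq.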

Additional observations from a re-analysis of the deposited data

Results flagged for a closer look

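Of 70 groups of 6 values examined, 9 had 1 sample far from the others by Dixon's ratio (its gap to the nearest sample over the range of the group), which chance gives in about 1 of 20 groups. The ratios were 0.656 for Pemt in anti-FGFR1 mice (replicate 2 at 8.57, next 8.51), 0.673 for Afmid (replicate 2 at 7.51, next 7.28), 0.694 for Slc6a8 (replicate 1 at 9.39, next 9.60) and 0.737 for Alpl (replicate 2 at 7.72, next 7.92), all after anti-FGFR1. Among marker means they were 0.754 for brown fat in control IgG mice (replicate 1), 0.635 for mesothelium in anti-FGFR1 mice (replicate 5), 0.745 for mesothelium in control IgG mice (replicate 6) and 0.743 for skeletal muscle in anti-FGFR1 mice (replicate 5). The 3' to 5' difference gave 0.708 in control IgG mice (replicate 1 at 0.22, next 0.16).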

How the results depend on the processing

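Inmt was called under all 13 other fits and without each mouse, with differences between -1.97 and -1.78. These calls reuse the arrays by which Inmt was chosen and are description. The main counts were 1461 genes, 2 enzymes and 14 pathway genes. They became 688, 1 and 9 with the 3' to 5' difference as a covariate, 140, 1 and 1 (not among the 14) with the endothelial mean, and 1, 1 and 0 with the smooth muscle and pericyte mean. With the macrophage mean 23 pathway genes were called. The causes were not tested. Leaving out 1 mouse gave 1043 to 1698 genes, 1 to 3 enzymes (1 being Inmt alone) and 13 to 17 pathway genes. A second quantile normalization gave 732 genes higher and 760 lower, against 535 and 926 as deposited. With the replicate number as a block 1337 genes, 3 enzymes and 16 pathway genes were called, Gamt (-0.35 ± 0.09) being the additional enzyme. In same-numbered mice the deviations of all genes from their group means correlated between -0.29 and 0.33, and the labels do not pair these mice. Gamt was also called without anti-FGFR1 replicate 6 (-0.41 ± 0.12), and Hnmt without control IgG replicate 2 (0.28). These calls of Gamt and Hnmt are description too.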
